A study of Mus musculus with 6 samples.

Results

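Transcripts of the mitochondrial genome were followed in mouse primary osteoblasts, the bone-forming cells, given Cre recombinase to delete Mark3, a serine/threonine kinase of the microtubule affinity-regulating family. The members were the 37 genes that the GENCODE M21 annotation places on the mitochondrial chromosome (MT, build GRCm38), of 51912 genes in the table: 13 protein coding, 2 rRNA and 22 tRNA genes. Cells came from the calvaria, the skull cap, of C57BL/6J pups aged 1 d, and all of them carried the Mark3 flox/flox alleles. The Mark3-KO group (3 libraries) received CRE adenovirus for 24 h and the WT group (3 libraries) received GFP adenovirus for 24 h, so that virus cargo and genotype changed together. WT here therefore means floxed cells without Cre, and no uninfected cells were analysed here. Whether the 3 libraries of a group are separate cultures is not stated in the labels. The p-values therefore measure only how these libraries vary, and that variation may be technical.

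The mammalian mitochondrial genome is a small circle that encodes core subunits of the respiratory chain and of ATP synthase, the rRNAs of the mitochondrial ribosome and the tRNAs that ribosome uses. Each strand is transcribed as a long polycistronic RNA by the polymerase Polrmt with the factors Tfam and Tfb2m. The tRNAs punctuate that RNA, and their excision frees the rRNAs and most mRNAs, most of which are then polyadenylated. Most genes are read from the heavy strand, while mt-Nd6 and several tRNAs are read from the light strand. Osteoblasts use both respiration and glycolysis for energy.

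In brief, the libraries of Mark3-KO cells had more of their counts on mitochondrial genes than those of WT cells, by a similar factor for most genes that could be tested. No member passed the adjusted threshold, and the size of the difference depended on a correction for GC content. Many members were listed at 0, and identical copies of several of them in the nuclear genome held counts that differed greatly between libraries.

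Libraries held 56925883 to 71445243 counts. Mark3 itself stood at 47.6, 52.4 and 44.1 CPM (counts scaled to library size) in the Mark3-KO libraries, against 113, 118 and 118 CPM in the WT libraries. Mark3-KO over WT gave a log2 fold change of -1.27 (SE 0.10, edgeR adjusted p 0.0153). The ratio of the mean levels was 0.414, so loss of the transcript was partial. That quasi-likelihood test was used throughout, with Benjamini-Hochberg adjustment over 19017 genes and a threshold of 0.05. Malat1, a nuclear long noncoding RNA, set Mark3-KO replicate 3 apart, with 2277 CPM there, against 116 and 134 CPM in the other Mark3-KO libraries and 68.6 to 103 CPM in WT. Neat1, another nuclear RNA, had 298 CPM in that library and at most 52.7 CPM in any other. The summed level of 6 osteoblast markers ran from 3534 to 5266 CPM in Mark3-KO and from 7129 to 21502 CPM in WT, and all 6 had counts. Most of that sum was Col1a1, the main collagen chain of bone. Col1a1, Alpl and Bglap lay lower in Mark3-KO without overlap, while Runx2, Sp7 and Ibsp overlapped between groups. Macrophage and osteoclast markers summed to 209 to 221 CPM in Mark3-KO and 202 to 229 CPM in WT, most of it Ctsk, and endothelial markers to 4.13 to 4.49 CPM and 4.10 to 4.37 CPM. Chondrocyte markers summed to 351 to 583 CPM in Mark3-KO, against 668 to 1731 CPM in WT, and skeletal muscle markers to 2.90 to 6.38 CPM, against 8.44 to 15.6 CPM. Most of the chondrocyte sum was Col2a1, which with Col9a1 lay lower in Mark3-KO without overlap, while Sox9 and Acan overlapped between groups. The 4 adipocyte markers stayed below 1 CPM each, with Lep at 0, and the 4 globin genes of red blood cells summed to at most 0.0651 CPM. Single markers within a list could differ where the sum did not: Adgre1, a macrophage receptor, averaged 12.2 ± 1.04 CPM in Mark3-KO and 8.49 ± 0.71 CPM in WT (SD, n = 3 each), while Csf1r, the receptor for CSF1, had 7.45 to 9.94 CPM in Mark3-KO and 10.5 to 13.5 CPM in WT. Ptprc also lay higher and Cd68 lower in Mark3-KO without overlap, and Pecam1 of the endothelial list lay higher, at 0.463 ± 0.080 CPM in Mark3-KO and 0.190 ± 0.023 CPM in WT. The single cell type markers in this paragraph were named after their values were seen. Without Mark3-KO replicate 3, the library with high Malat1, the difference in the mitochondrial share of counts described further on was 0.85 percentage points, against 1.18 with it, and the median log2 fold change of the 15 tested members was 0.59, against 0.85. The part of the cell mixture in the mitochondrial values was not tested. In these bulk samples, fewer cells of a type and less RNA per cell cannot be told apart. GC content also differed among the markers. Osteoblast and chondrocyte markers lower in Mark3-KO without overlap had a transcript GC content of 52.2 to 62.2%, and the overlapping ones 45.2 to 54.8%. Levels moved with GC content between the groups, as described further on, and its part in the marker differences was not tested.

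Of the 37 members, 19 were listed at 0 in all 6 libraries, 3 had counts in some libraries and 15 had counts in all. Listed at 0 were both rRNA genes, mt-Rnr1 (MT 70 to 1024) and mt-Rnr2 (MT 1094 to 2675), which make the RNA of the small and large mitochondrial ribosomal subunits. So were 6 of the 13 protein coding genes: mt-Atp8 and mt-Atp6 of ATP synthase, mt-Co3 of cytochrome c oxidase, and mt-Nd3, mt-Nd4l and mt-Nd4 of complex I. The remaining 11 genes at 0 were tRNA genes. Most rows at 0 formed blocks on the map, while mt-Tm and mt-Ts2 stood at 0 alone. The longest reached from mt-Tk to mt-Nd4 (MT 7700 to 11544), and another covered mt-Tf to mt-Rnr2 (MT 1 to 2675). Genes next to a block could be abundant: mt-Co2 (MT 7013 to 7696), which ends just before mt-Tk, had 12357, 11529 and 11538 counts in the Mark3-KO libraries and 4541, 3666 and 10507 counts in the WT libraries. Among nuclear genes, 1 of 84 ribosomal protein genes was at 0 in all libraries, as were Rn7s1 and Rn7s2, genes of the abundant 7SL RNA. Because a row at 0 can be a failed assignment of reads, nothing is said here about the level of these 19 transcripts.

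**Figure D1:**
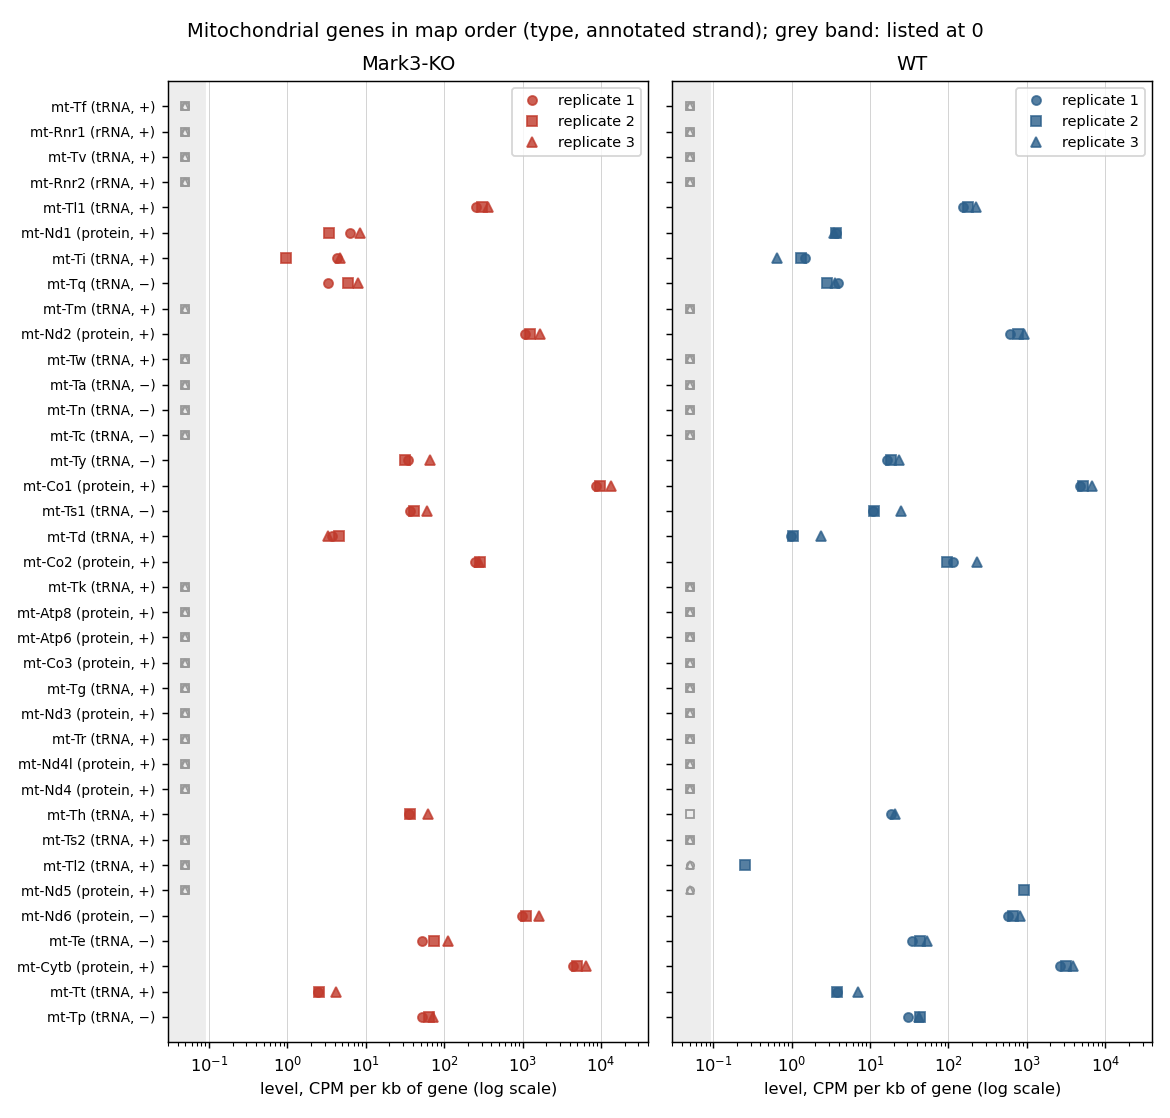
Level of each of the 37 mitochondrial genes, in CPM per kb of gene on a log axis, with genes in map order down the page, Mark3-KO libraries on the left and WT libraries on the right, 1 symbol per library. Points in the grey band are listed at 0; 19 genes lie there in all 6 libraries, most of them in blocks along the map.

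The 3 members with counts in some libraries were switched on or off in WT replicate 2. The gene mt-Nd5 (MT 11742 to 13565), which encodes the largest complex I subunit made in mitochondria, was listed at 0 in all 3 Mark3-KO libraries and in WT replicates 1 and 3, and had 93309 counts in WT replicate 2. Its neighbour mt-Th, the histidine tRNA, did the opposite: it had 175, 148 and 253 counts in the Mark3-KO libraries and 73, 0 and 93 counts in the WT libraries, with the 0 in WT replicate 2. Between them, mt-Tl2 had a single count, in the same library. A switch from 0 to at least 1000 counts between libraries was seen for 4 of the 8630 nuclear protein coding genes that reached 1000 counts in any library. Both mt-Th and mt-Tl2 were named after their values were seen.

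Overlap of genes on the mitochondrial map bears on how reads can be assigned. The genes mt-Nd5 and mt-Nd6 lie on opposite strands and share 14 bases at their 3′ ends (MT 13552 to 13565), and the library kit does not mark strand. Reads of a gene and of RNA from the opposite strand could therefore not be told apart. The last 60 bases of both genes are shown 5′ to 3′, each on its own strand, from the GENCODE M21 transcripts of GRCm38, with the shared bases, which are reverse complements of each other, in capitals (mt-Nd5 end, MT 13506 to 13565, plus strand; mt-Nd6 end, MT 13552 to 13611, minus strand).
mt-Nd5 3′ end: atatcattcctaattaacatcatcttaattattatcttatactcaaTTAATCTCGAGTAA
mt-Nd6 3′ end: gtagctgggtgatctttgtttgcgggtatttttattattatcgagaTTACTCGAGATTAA
Genes also overlap on 1 strand, such as mt-Atp8 with mt-Atp6 and mt-Nd4l with mt-Nd4, and all 4 of these are listed at 0. Other overlapping genes had counts. On the plus strand mt-Nd1 overlaps mt-Ti, and both had counts in all 6 libraries. Likewise mt-Nd2 overlaps mt-Tw, where mt-Nd2 had counts in all 6 libraries and mt-Tw was at 0. Both rRNA genes overlap no other gene and were also listed at 0.

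Among the 15 members that passed the filter on low counts (6 protein coding and 9 tRNA genes), edgeR's quasi-likelihood test called none. Its background was also low, with 0.216% of all tested genes called in either direction and 0.0473% called higher. At an unadjusted p below 0.05, 12 members were higher in Mark3-KO and 0 lower, where 20.8% of all tested genes were higher by that rule. At an adjusted p below 0.1, 11 members were higher, against a background of 19.7%. The DESeq2 Wald test called 10 members higher and 0 lower, against 14.5% of all tested genes called higher, and limma-voom called 0. In edgeR, 9 members passed as higher without Mark3-KO replicate 1, where 12.1% of tested genes did, and 9 without WT replicate 3, where 12.9% did. Leaving out any of the other 4 libraries gave 0. In 11 of the 15, all Mark3-KO libraries lay above all WT libraries, which held for 25.8% of tested genes. The median log2 fold change of the 15 was 0.85, against 0.02 over all tested genes, and their adjusted p ran from 0.0506 to 0.213. Values just above the threshold were common in this experiment: 4707 genes had an adjusted p below 0.055. The filter asked for about 0.163 CPM in at least 3 libraries. The aspartate tRNA gene mt-Td reached that level in the 3 Mark3-KO libraries and in 1 WT library, and mt-Ti, the isoleucine tRNA with 3 to 22 counts, did not pass. The tRNA gene mt-Th reached it in 3 Mark3-KO and 2 WT libraries. For mt-Td and mt-Th the WT libraries alone would not have met the filter. The tallies at an unadjusted p below 0.05, at an adjusted p below 0.1, without WT replicate 3 and without overlap include mt-Td. The last also includes mt-Th.

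The best covered member was mt-Co1 (MT 5328 to 6872, plus strand), the catalytic subunit of cytochrome c oxidase. It stood at 13283, 14955 and 20923 CPM in the Mark3-KO libraries, against 7378, 8145 and 10573 CPM in the WT libraries. The groups did not overlap, and the lowest Mark3-KO library was replicate 1 while the highest WT library was replicate 3. Means were 16387 ± 4016 CPM in Mark3-KO and 8699 ± 1668 CPM in WT (SD, n = 3 each), a log2 fold change of 0.91 (SE 0.22) with an edgeR adjusted p of 0.0506.

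The second most abundant was mt-Cytb (MT 14145 to 15288, plus strand), cytochrome b of complex III. Its level was 4958, 5632 and 7272 CPM in the Mark3-KO libraries, against 2989, 3667 and 4407 CPM in the WT libraries, again with no overlap and with replicate 3 highest in both groups. On the log2 scale the fold change came to 0.69 (SE 0.20) at an edgeR adjusted p of 0.0525.

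Complex I genes with counts in every library behaved alike in direction but not in level. For mt-Nd2 (MT 3914 to 4951, plus strand), a subunit of the membrane arm, the Mark3-KO libraries had 1098, 1287 and 1718 CPM and the WT libraries 632, 797 and 954 CPM, a log2 fold change of 0.78 (SE 0.21, edgeR adjusted p 0.0511). The gene mt-Nd6 (MT 13552 to 14070, minus strand) had 511, 580 and 840 CPM in the Mark3-KO libraries and 301, 349 and 419 CPM in the WT libraries, a log2 fold change of 0.85 (SE 0.22, edgeR adjusted p 0.0506). Neither gene's groups overlapped. Without strand in the counts, reads of mt-Nd6 cannot be told apart from RNA of the opposite strand. By contrast mt-Nd1 (MT 2751 to 3707, plus strand), another membrane arm subunit, had only 6.08, 3.29 and 8.05 CPM in the Mark3-KO libraries and 3.53, 3.49 and 3.28 CPM in the WT libraries. Those groups overlapped, since Mark3-KO replicate 2 lay among the WT libraries, with a log2 fold change of 0.76 (SE 0.32, edgeR adjusted p 0.109).

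Levels can be compared between genes per length. In CPM per kb, mt-Co1 averaged 10607 in Mark3-KO and 5630 in WT, mt-Cytb 5205 and 3223, mt-Nd2 1318 and 765, and mt-Nd6 1240 and 686. The gene mt-Co2, without the counts on its nuclear copies, followed with 268 in Mark3-KO and 147 in WT. Far below stood mt-Nd1 with 6.07 in Mark3-KO and 3.59 in WT, although it is read from the same polycistronic RNA. Whether its low counts come from the transcript or from the assignment of reads was not tested. The upstream neighbour of mt-Nd1, mt-Tl1, had 308 in Mark3-KO and 186 in WT. The ratio of mt-Tl1 to mt-Nd1 per base was 40.4, 88.9 and 43.0 in the Mark3-KO libraries and 41.4, 49.1 and 66.1 in the WT libraries, with the groups overlapping.

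**Figure D2:**
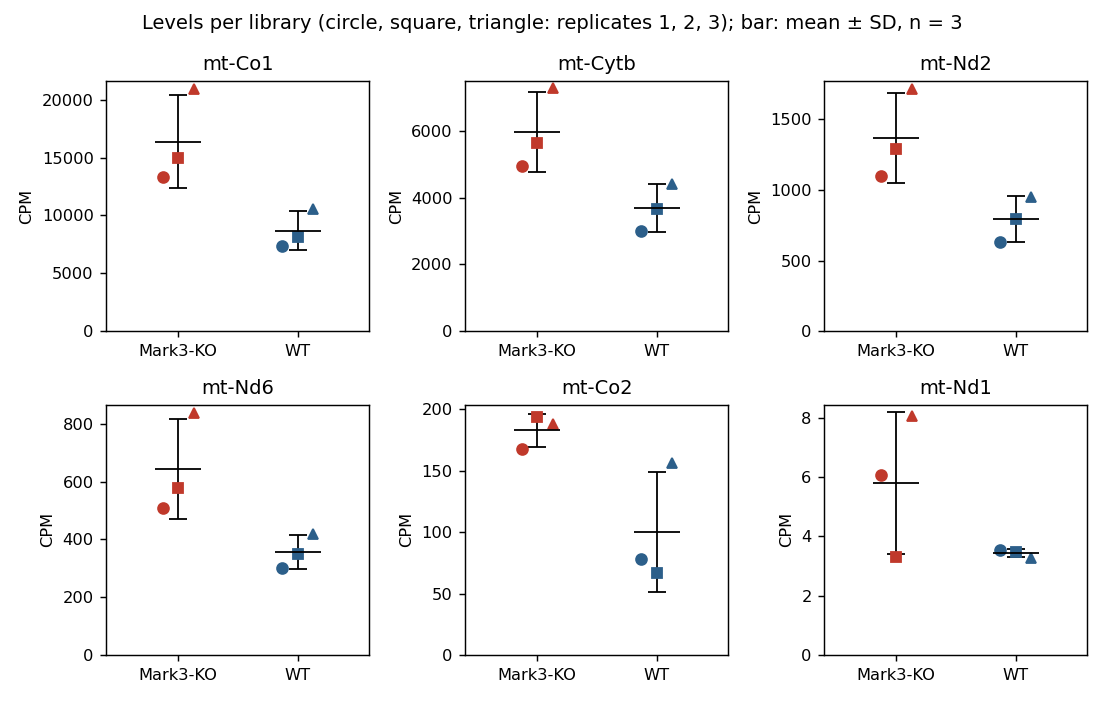
Level in CPM (linear axes from 0) of the 6 protein coding mitochondrial genes with counts in every library, Mark3-KO left and WT right. Symbols are libraries and bars are mean ± SD of 3; the groups do not overlap for 5 of the 6, and for mt-Nd1 they do.

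The 4 tRNA genes with the highest mean counts are shown with the anticodon in capitals, as the DNA of the gene read 5′ to 3′ (GENCODE M21 transcripts, GRCm38), because they carry most of the tRNA counts and because 3 of them are annotated on the light strand. They are mt-Tl1 for leucine (MT 2676 to 2750, plus strand), mt-Te for glutamate (MT 14071 to 14139, minus strand), mt-Tp for proline (MT 15356 to 15422, minus strand) and mt-Ts1 for serine (MT 6870 to 6938, minus strand).
mt-Tl1: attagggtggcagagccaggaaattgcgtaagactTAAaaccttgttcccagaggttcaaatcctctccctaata
mt-Te: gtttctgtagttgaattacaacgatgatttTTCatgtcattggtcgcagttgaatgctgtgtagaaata
mt-Tp: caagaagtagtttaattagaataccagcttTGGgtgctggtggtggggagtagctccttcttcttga
mt-Ts1: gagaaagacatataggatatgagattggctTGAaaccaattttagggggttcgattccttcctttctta
Each anticodon was taken as known and located in the gene sequence, in a loop closed by a stem of 5 positions. All 5 paired in mt-Te, mt-Tp and mt-Ts1, and 4 of the 5 in mt-Tl1. Precursor RNA, in which a tRNA is still joined to its neighbours, and mature tRNA are not separated in these counts.

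Counts on tRNA genes were few but leaned the same way. The leucine tRNA mt-Tl1 had 19.2, 22.9 and 27.2 CPM in the Mark3-KO libraries and 11.5, 13.4 and 17.0 CPM in the WT libraries, with no overlap, and a log2 fold change of 0.73 (SE 0.20, edgeR adjusted p 0.0511). The serine tRNA mt-Ts1 had 2.51, 2.82 and 4.21 CPM in the Mark3-KO libraries and 0.755, 0.781 and 1.73 CPM in the WT libraries, a log2 fold change of 1.54 (SE 0.39, edgeR adjusted p 0.0506). It lies antisense to the space just after mt-Co1 and overlaps only the last bases of that gene on the other strand (MT 6870 to 6872). Because the kit does not mark strand, reads anywhere in mt-Ts1 cannot be told apart from RNA of the opposite strand that runs past mt-Co1. The proline tRNA mt-Tp had 3.49, 4.25 and 4.77 CPM in the Mark3-KO libraries and 2.08, 2.87 and 2.82 CPM in the WT libraries, with no overlap (log2 fold change 0.69, SE 0.21, edgeR adjusted p 0.0553). The glutamate tRNA mt-Te had 3.54, 5.07 and 7.79 CPM in the Mark3-KO libraries and 2.40, 2.98 and 3.68 CPM in the WT libraries, where Mark3-KO replicate 1 lay below WT replicate 3 (log2 fold change 0.85, SE 0.32, edgeR adjusted p 0.0859).

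Among the other 5 tested tRNA genes, named after their values were seen, 4 had a positive log2 fold change and 1 a negative one. The negative one was mt-Tt, the threonine tRNA just after mt-Cytb, with 12, 10 and 17 counts in the Mark3-KO libraries and 15, 14 and 32 counts in the WT libraries (log2 fold change -0.71, SE 0.40, edgeR adjusted p 0.20). Its groups overlapped. The tyrosine tRNA mt-Ty had a log2 fold change of 1.17 (edgeR adjusted p 0.0515), mt-Td 1.35 (edgeR adjusted p 0.0586) and the glutamine tRNA mt-Tq 0.73 (edgeR adjusted p 0.187). For mt-Th the log2 fold change came to 1.75 (SE 1.00), or 1.17 (SE 0.33) without WT replicate 2, the library where it was listed at 0, with edgeR adjusted p of 0.213 and 0.153.

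Summed over all members, mitochondrial genes took 2.07, 2.38 and 3.22% of counts in the Mark3-KO libraries, against 1.05, 1.42 and 1.66% in the WT libraries. The means were 2.56 ± 0.60% in Mark3-KO and 1.37 ± 0.31% in WT (SD, n = 3 each), with no overlap. Counting error was far smaller than this spread: the widest 95% Wilson interval of a library's share was 0.00901 percentage points. In WT replicate 2, mt-Nd5 alone made up 0.163% of counts, and without it that library stood at 1.26%. Genes of cytosolic ribosomal proteins, a large class of nuclear transcripts, ran the other way as a group, with 3.72, 3.09 and 2.77% in the Mark3-KO libraries and 4.59, 4.13 and 3.74% in the WT libraries.

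Within the mitochondrial counts, mt-Co1 and mt-Cytb made up most of the total in every library, and mt-Nd5 took 11.5% in WT replicate 2. The share of mt-Co1 was 66.2, 65.9 and 67.5% in the Mark3-KO libraries and 64.7, 55.2 and 63.9% in the WT libraries, and WT replicate 2 came to 62.4% without mt-Nd5. The share of mt-Cytb was 24.7, 24.8 and 23.5% in the Mark3-KO libraries and 26.2, 24.9 and 26.6% in the WT libraries. The groups did not overlap for either gene, with mt-Co1 taking more and mt-Cytb less in Mark3-KO. For mt-Nd2 the shares averaged 5.56 ± 0.10% in Mark3-KO and 5.57 ± 0.18% in WT, and for mt-Nd6 2.60 ± 0.09% and 2.51 ± 0.14% (SD, n = 3 each), with overlap. Genes annotated on the light strand together took 2.67 ± 0.10% of mitochondrial counts in Mark3-KO and 2.57 ± 0.14% in WT. Without mt-Nd5 the WT means were 2.67 ± 0.07% for these genes and 2.62 ± 0.07% for mt-Nd6, so that neither lay below its Mark3-KO mean. The share of mt-Co2 was 0.836, 0.853 and 0.605% in the Mark3-KO libraries and 0.683, 0.452 and 0.947% in the WT libraries, and that of mt-Nd1 ran from 0.0145 to 0.0303% in Mark3-KO and from 0.0198 to 0.0310% in WT, both with overlap. A ratio of 2 genes does not depend on mt-Nd5. Per base, mt-Co1 over mt-Cytb was 1.98, 1.97 and 2.13 in the Mark3-KO libraries and 1.83, 1.65 and 1.78 in the WT libraries. Over mt-Cytb, mt-Nd6 was 0.227, 0.227 and 0.255 in the Mark3-KO libraries and 0.222, 0.210 and 0.210 in the WT libraries. Neither ratio overlapped between groups, and both differences were small next to the difference in the total share. The mt-Co1 counts used in its share and in its ratio leave out those on its nuclear copies, described next. These were 8.40 and 13.9% of the sum of gene and copies in WT replicates 1 and 2, and at most 0.802% in the other libraries. The separation of the groups in mt-Co1 over mt-Cytb therefore depends on where those reads were counted.

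Nuclear copies of mitochondrial DNA, pseudogenes inserted into chromosomes, compete with the members for reads. In this annotation 12 genes off the mitochondrial chromosome shared at least 100 runs of 31 bases with a mitochondrial transcript. Of these, 7 lay side by side on the minus strand of chr1:24611535-24616197, in the order of the genes from mt-Co1 to mt-Nd4, and 5 were identical to their mitochondrial gene over their whole length: Gm28661 (mt-Co2), Gm10925 (mt-Atp6), Gm28437 (mt-Co3), Gm10222 (mt-Nd4l) and Gm28439 (the first 876 bases of mt-Nd4). Of the same block, Gm28438 differed from mt-Nd3 by T3C alone, and Gm29216 covered bases 1054 to 1545 of mt-Co1 with 6 differences (T1056A, C1057T, A1059G, A1060G, C1062A and A1066T, counted from 1 at the 5′ end of the mitochondrial gene, whose base comes first). In the lines that follow, from the GENCODE M21 transcripts of GRCm38, the stretch of mt-Co2 (MT 7013 to 7132) and its copy (chr1:24615446-24615565, minus strand) are identical base for base, so that a read inside them matches both. The stretch of mt-Co1 (MT 6381 to 6470) and its copy (chr1:24616108-24616197, minus strand) carry the differing bases in capitals, all within the first bases of the copy.
mt-Co2: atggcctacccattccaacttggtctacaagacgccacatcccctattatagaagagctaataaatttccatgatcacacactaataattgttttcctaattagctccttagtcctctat
Gm28661: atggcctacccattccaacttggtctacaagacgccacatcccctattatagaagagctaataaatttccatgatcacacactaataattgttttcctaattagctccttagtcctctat
mt-Co1: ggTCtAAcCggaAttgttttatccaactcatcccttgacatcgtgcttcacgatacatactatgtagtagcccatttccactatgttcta
Gm29216: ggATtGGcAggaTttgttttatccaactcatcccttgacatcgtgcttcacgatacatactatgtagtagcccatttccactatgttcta

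Counts on the copies differed between libraries far more than counts on the members. Together the 12 copies held 0.00844, 0.0368 and 0.0378% of counts in the Mark3-KO libraries, against 0.189, 0.427 and 0.00415% in the WT libraries. WT replicates 1 and 2 were thus high and WT replicate 3 was the lowest of all 6. For the mt-Co2 copy Gm28661 the counts were 1211, 7094 and 6433 in the Mark3-KO libraries and 35233, 80701 and 816 in the WT libraries. For Gm10925, the copy of mt-Atp6, they were 1177, 6459 and 6959 in the Mark3-KO libraries and 0, 62172 and 849 in the WT libraries, while mt-Atp6 itself was listed at 0 throughout. Similarly Gm28437, the copy of mt-Co3, had 36582 and 5878 counts in WT replicates 1 and 2, and Gm28439, the copy of mt-Nd4, 8389 and 21253, and both were at 0 elsewhere. Which locus any of these reads came from was not tested.

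Summing each copy into its mitochondrial gene, an alternative chosen after seeing the data, reversed the direction of 1 of the 15 tested members, mt-Co2, and let mt-Atp6 and mt-Nd5 be tested as well. For mt-Co2 alone the level was 168, 194 and 188 CPM in the Mark3-KO libraries, against 77.9, 66.6 and 157 CPM in the WT libraries, with no overlap (log2 fold change 0.87, SE 0.32, edgeR adjusted p 0.0809). Together with its copies Gm28661 and Gm13341 it was 185, 315 and 295 CPM in the Mark3-KO libraries, against 693, 1551 and 169 CPM in the WT libraries, and the log2 fold change became -1.60 (SE 0.71, edgeR adjusted p 0.124). The copies held 9.24, 38.6 and 36.4% of that sum in the Mark3-KO libraries and 88.8, 95.7 and 7.57% in the WT libraries. Against WT replicate 3 alone, the WT library with the fewest copy counts, the log2 fold change of mt-Co2 without its copies was 0.21 (SE 0.15, edgeR adjusted p 0.615). The direction of mt-Co2 therefore depends on whether the copies are counted with it. With copies, mt-Atp6 had a log2 fold change of -2.26 (SE 2.25, edgeR adjusted p 0.457), and mt-Nd5 one of -10.52 (SE 3.65, edgeR adjusted p 0.0713) that rests on WT replicate 2, since its sums were 32, 21 and 22 counts in the Mark3-KO libraries and 23, 93332 and 10 counts in the WT libraries. For mt-Co1 the copies were a small part of the sum, at most 13.9% (WT replicate 2), and the log2 fold change with them was 0.82 (SE 0.20, edgeR adjusted p 0.0505), still without overlap. The share of library counts with all copies added was 2.08, 2.41 and 3.26% in the Mark3-KO libraries and 1.24, 1.85 and 1.66% in the WT libraries, with no overlap.

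**Figure D3:**
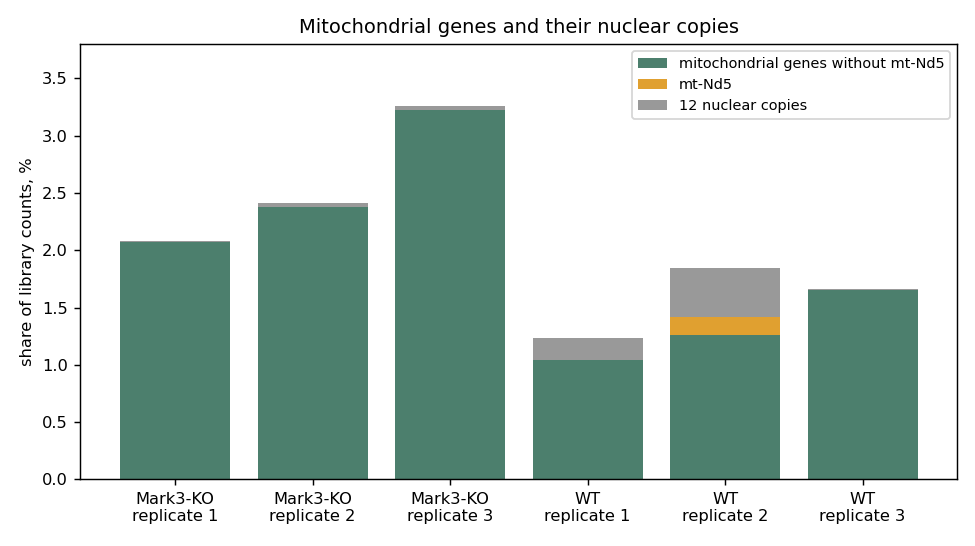
Share of library counts in percent (stacked bars from 0) taken by the mitochondrial genes without mt-Nd5, by mt-Nd5 and by the 12 nuclear copies, Mark3-KO libraries left and WT libraries right. The mitochondrial part is higher in every Mark3-KO library; mt-Nd5 appears in WT replicate 2 alone, and the copies are largest in WT replicates 1 and 2.

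GC content moved with the comparison. Members are poor in G and C (17.1 to 44.9%, median 35.6%), while the median of tested genes was 48.9%. The tenth of genes with the highest GC content (57.2% or more) had a median log2 ratio to the mean of -0.18, -0.58 and -0.80 in the Mark3-KO libraries and 0.96, 0.57 and 0.07 in the WT libraries. For the tenth with the lowest (40.8% or less) it was 0.05, 0.25 and 0.43 in the Mark3-KO libraries and -0.39, -0.25 and -0.07 in the WT libraries. All Mark3-KO libraries thus lay to one side of all WT libraries, in the direction in which the mitochondrial genes differed. After a per-library GC correction, the log2 fold change was 0.36 for mt-Co1, 0.12 for mt-Cytb, 0.09 for mt-Nd2, 0.11 for mt-Nd6, 0.32 for mt-Co2 and 0.11 for mt-Nd1, against 0.69 to 0.91 without it. The median of the 15 tested members was 0.32 after correction, and 14 of the 15 stayed above 0, with an edgeR adjusted p of 0.102 for mt-Co1 and up to 0.962 for others. The smallest adjusted p, 0.0941 in edgeR, was that of mt-Tt, the 1 member below 0, whose log2 fold change came to -1.42 after correction, against -0.71 without it. Because GC content and group differ together, a difference of biological origin and one of library origin cannot be told apart.

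**Figure D4:**
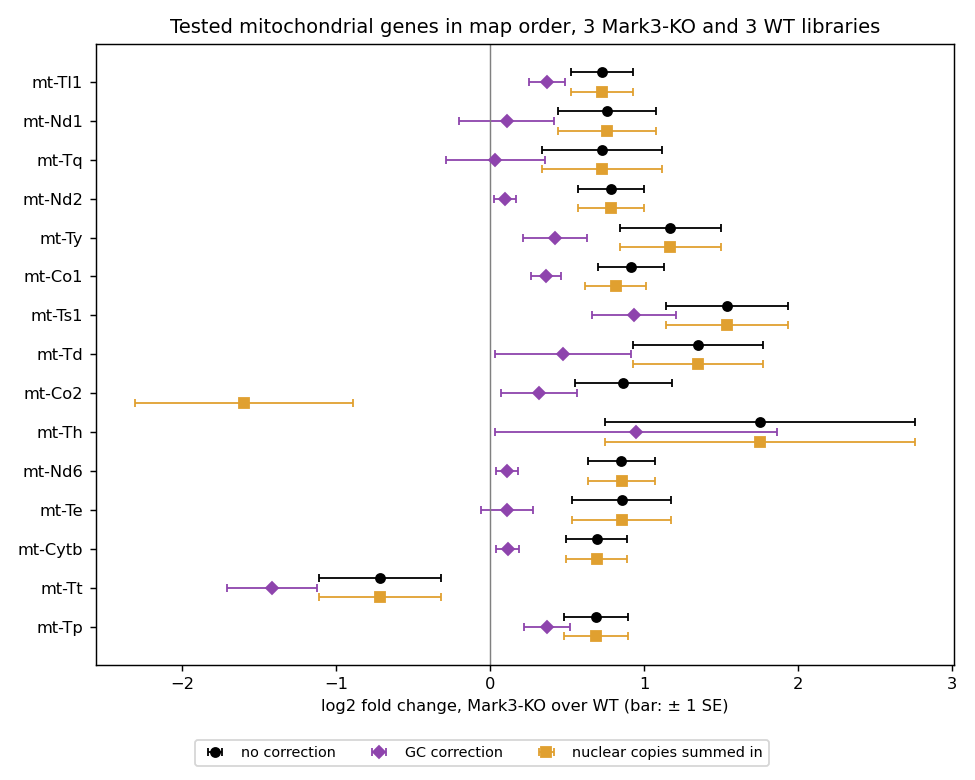
Log2 fold change, Mark3-KO over WT, with bars of ± 1 SE for the 15 tested mitochondrial genes in map order, without correction, with the GC correction, and with nuclear copies summed in. The GC correction brings most points closer to 0, and summing the copies turns mt-Co2 to -1.60.

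Nuclear genes that make and handle mitochondrial RNA and DNA were taken as a list of 46. All 46 were tested and none passed the adjusted threshold in edgeR's quasi-likelihood test, nor in limma-voom. The DESeq2 Wald test called 12 higher, against 14.5% of all tested genes called higher, and 12 lower. The share of all tested genes called lower by the Wald test is not given here. The 12 lower calls are therefore not read as a result about the list. In edgeR 20 passed in either direction without Mark3-KO replicate 1, where 32.1% of tested genes did, and 20 without WT replicate 3, where 32.9% did. Leaving out any of the other 4 libraries gave 0. At an unadjusted p below 0.05, 17 were higher in Mark3-KO and 13 lower, against 20.8% and 24.8% of all tested genes. The median log2 fold change was 0.17, against 0.02 over all tested genes, and -0.03 after the GC correction. In edgeR, 30 of the list had an unadjusted p below 0.05 in either direction without that correction, and 13 with it. The share of all tested genes with it is not given here.

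Of the 11 genes of the polymerase, its factors and termination, 6 were higher and 2 lower at an unadjusted p below 0.05 in edgeR. By that rule 20.8% of all tested genes were higher and 24.8% lower, and a group this small is described only. The polymerase Polrmt had 5.68, 3.24 and 2.26 CPM in the Mark3-KO libraries and 28.2, 15.2 and 6.35 CPM in the WT libraries, a log2 fold change of -2.15 (SE 0.59, edgeR adjusted p 0.0511). Tfam, which packages mitochondrial DNA and bends its promoters, had 34.9, 41.7 and 44.7 CPM in the Mark3-KO libraries and 30.2, 29.7 and 34.7 CPM in the WT libraries, a log2 fold change of 0.36 (SE 0.14, edgeR adjusted p 0.0867). Tfb2m, which melts the promoter with the polymerase, averaged 39.1 ± 4.59 CPM in Mark3-KO and 26.9 ± 3.14 CPM in WT (SD, n = 3 each), a log2 fold change of 0.54. Polrmt thus lay below 0 and Tfam and Tfb2m above it, each without overlap between groups. The GC content of the Polrmt transcript was 60.5%, against 44.9% for Tfam and 42.5% for Tfb2m.

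At an unadjusted p below 0.05 in edgeR, genes of RNA processing counted 3 higher and 3 lower of 10. Those of stability, polyadenylation and decay counted 4 higher and 0 lower of 8. The shares over all tested genes were 20.8% higher and 24.8% lower, and these small groups are described only. Pnpt1, the polynucleotide phosphorylase that degrades mitochondrial RNA, averaged 79.8 ± 12.4 CPM in Mark3-KO and 45.9 ± 7.49 CPM in WT (log2 fold change 0.80, SE 0.17, edgeR adjusted p 0.0506). Trmt10c, a subunit of the enzyme that cuts the 5′ ends of mitochondrial tRNAs, averaged 26.4 ± 2.61 CPM in Mark3-KO and 18.6 ± 1.17 CPM in WT (log2 fold change 0.50). Lrpprc, which stabilises mitochondrial mRNAs, averaged 98.5 ± 3.39 CPM in Mark3-KO and 86.3 ± 9.01 CPM in WT (log2 fold change 0.19, edgeR adjusted p 0.198). Fastk, the founding member of a family of mitochondrial RNA-binding proteins and needed for mt-Nd6 mRNA, had 19.4, 10.4 and 9.18 CPM in the Mark3-KO libraries and 69.3, 46.1 and 27.4 CPM in the WT libraries (log2 fold change -1.87), while mt-Nd6 was among the higher members. The transcript GC content was 57.4% for Fastk, 39.6% for Pnpt1, 42.2% for Trmt10c, 47.1% for Lrpprc and 34.1% for mt-Nd6. After the GC correction the log2 fold change of mt-Nd6 was 0.11. The part of GC content in these differences was not tested.

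By the same unadjusted rule, by which 20.8% of all tested genes were higher and 24.8% lower, 2 of 7 upstream regulators were higher and 4 lower, with a median log2 fold change of -0.56, and of 10 replication genes 2 were higher and 4 lower, with a median of -0.23. Groups this small are described only. Nrf1, a transcription factor of nuclear genes for mitochondrial proteins, had 20.9, 23.3 and 20.5 CPM in the Mark3-KO libraries and 33.4, 31.8 and 29.9 CPM in the WT libraries (log2 fold change -0.56). Pprc1, a coactivator related to PGC-1alpha, averaged 54.3 ± 13.5 CPM in Mark3-KO and 97.9 ± 13.7 CPM in WT (log2 fold change -0.85). Both had an edgeR adjusted p of 0.0506, as had Tfb2m, Trmt10c and Fastk. The transcript GC content was 45.4% for Nrf1 and 55.9% for Pprc1.

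**Figure D5:**
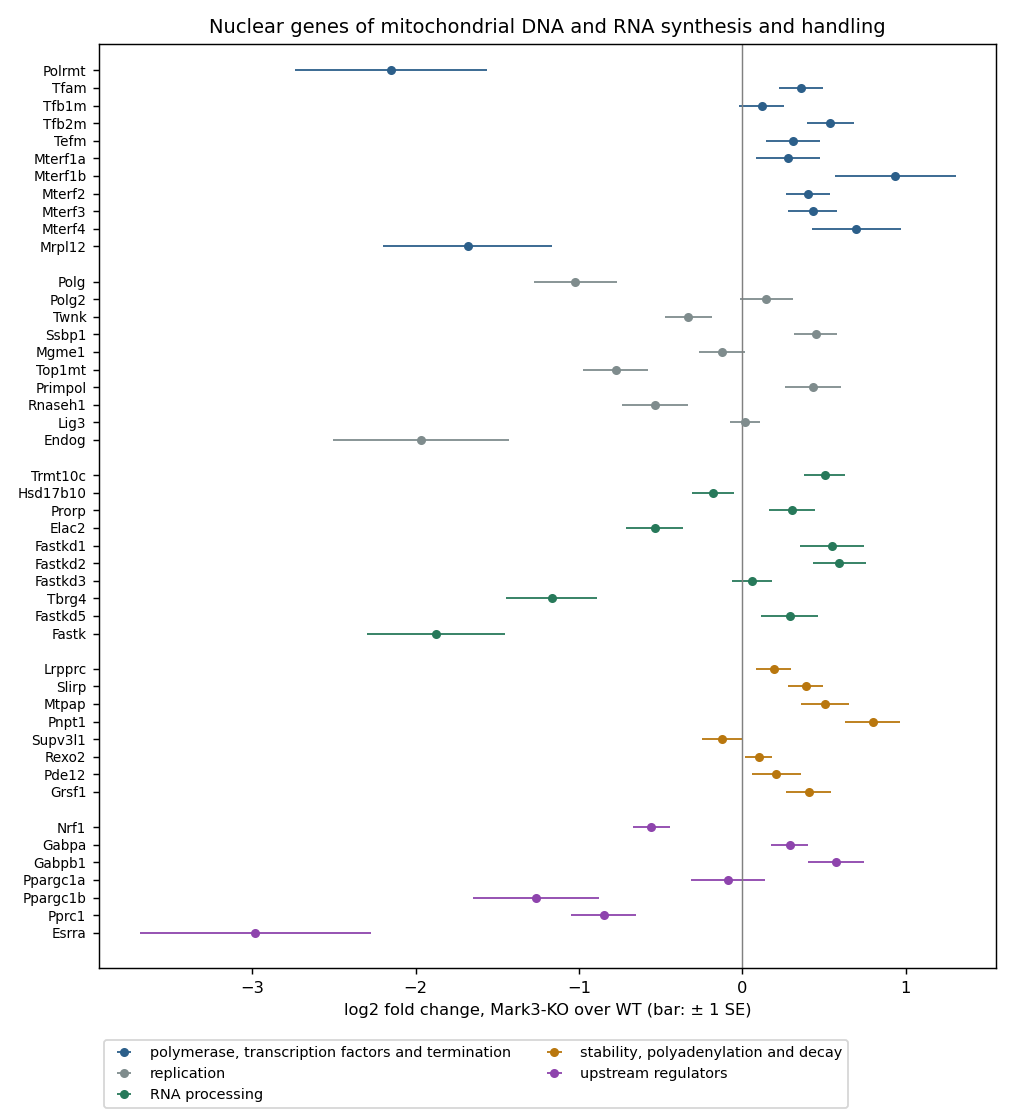
Log2 fold change, Mark3-KO over WT, with bars of ± 1 SE for 46 nuclear genes of mitochondrial DNA and RNA synthesis and handling, grouped by role. Points lie on both sides of 0 in each role; Polrmt stands at -2.15 and Pnpt1 at 0.80.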

How the data were processed

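RNA was profiled in 6 libraries, with RNA taken up in Trizol and libraries made with the TruSeq RNA kit version 2, per the labels' protocols. The authors deposited 1 table of raw counts, whole numbers for each gene and library. The build GRCm38 and the tools HISAT2 2.0.5, StringTie, FastQC and DESeq2 are named per the submitters' processing notes. How reads of several positions or of overlapping genes were counted is not given in the sources used here. Of 51912 gene IDs, 51719 matched GENCODE M21 and 193 did not. Depth was 56925883 to 71445243 counts.

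Counts were fitted with edgeR 4.0.16 (R 4.3.3; filterByExpr, TMM, quasi-likelihood test, Benjamini-Hochberg over 19017 genes), in all 6 libraries without covariates. CPM use TMM-scaled library sizes, and the SE is the log2 fold change over the root of F. Alternatives were DESeq2 1.42.0, limma-voom 3.58.1, other scalings, filters and thresholds, a GC correction (natural spline with 6 degrees of freedom per library as offset), a replicate block and leaving out each library. Added after seeing the data were the sums with nuclear copies, shares without mt-Nd5 and WT replicate 3 alone. Shares were described per library, with no test. Wilson intervals cover counting error only, since reads are not independent molecules. Sequences came from GENCODE M21 transcripts.

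The members and lists were chosen with earlier results of these data known. Named were all protein coding and rRNA members, the 4 tRNA genes with the highest mean counts, Mark3, Malat1, Neat1, and from the nuclear list Tfam, Polrmt, Lrpprc and the 3 genes with the smallest p in each direction.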

Additional observations from a re-analysis of the deposited data

How the results depend on the processing

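No member passed the threshold of 0.05 with DESeq2 size factors, TMM without the mitochondrial genes, limma-voom, no filter, the GC correction, nuclear copies summed in or WT replicate 3 alone (its spread assumed to be that of the Mark3-KO group). The count of members past it was 8 with library size alone, 8 with a filter of 1 CPM in 3 libraries, 10 with the DESeq2 Wald test, 11 at an adjusted p below 0.1, 10 with a replicate block, 2 with that block and the GC correction, and 0 to 9 when 1 library was left out, with 9 without Mark3-KO replicate 1 and 9 without WT replicate 3. All these calls were higher in Mark3-KO. Those at an adjusted p below 0.1 and those without WT replicate 3 include mt-Td, whose WT libraries alone would not have met the filter. For the 46 nuclear genes the counts were 18 with library size alone, 18 with 1 CPM, 24 with the Wald test, 30 at 0.1, 29 with the block, 7 with block and GC correction, and 0 to 20 when 1 library was left out. Over all tested genes, 14.5% were called higher by the Wald test and 19.7% in edgeR at 0.1. That share is not given here for library size alone, 1 CPM or the block. In the main fit 4707 genes had an adjusted p below 0.055. These counts therefore describe how calls move with the setting and are not read as particular to the members or the list. Library size alone moved the median of all genes to 0.13. Same-numbered libraries correlated in their deviations at 0.33, -0.03 and 0.29, and differently numbered ones at -0.35 to 0.09. These values do not settle whether the numbers pair the libraries. The main fit therefore took no pairing, and the replicate block is given as an alternative. Of 267 recomputed log2 fold changes of the 15 tested members, 210 kept direction and side, 56 passed the threshold and 1 reversed, mt-Co2 at -1.60 with copies summed; the cause was not tested. The difference in the share of library counts, 1.18 percentage points, ran from 0.85 (without Mark3-KO replicate 3) to 1.43 (without Mark3-KO replicate 1), and was 1.00 with the copies added and 0.90 against WT replicate 3 alone. Without mt-Nd5, the difference in share within mitochondrial counts was 2.86 points for mt-Co1, against 5.25 with it (2.23 without WT replicate 2), -2.65 points for mt-Cytb, against -1.58 with it, and -0.24 points for mt-Nd2, against -0.01. The nuclear copies were not added in these shares. Depth does not limit the abundant genes, while mt-Td, mt-Ti, mt-Tq and mt-Tt rest on fewer than 40 counts a library.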
